A study of Mus musculus with 6 samples.

Results

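The genes described here are 10 regulators of Notch signalling and of secretory cell fate in the gut epithelium. They are the receptors Notch1 and Notch2, the ligands Dll1, Dll4 and Jag1, the Notch target Hes1, and the secretory lineage transcription factors Atoh1, Gfi1, Spdef and Foxa3. They were chosen by gene symbol, as every array probe annotated to one of them. This gave 12 of the 45135 probes, for 10 of the 19031 named genes. Notch2 and Dll4 have 2 probes each and the other 8 genes have 1.

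Expression was measured on Illumina bead arrays, 1 array per mouse, in total RNA of colon mucosa from 6 mice aged 5 months on a C57/B6 background. All 6 mice carried APC(Min/+), an Apc mutation that predisposes to intestinal tumours, and the homozygous floxed allele Dnmt3a(2lox/2lox). The 3 Dnmt3a-deleted mice also carried the transgene Fabpl(4x at -132)-Cre, as Cre(-/+), and the 3 control mice had no Cre. The transgene's name refers to a fatty acid binding protein promoter, and the series' design gives the deletion as present in 30 to 50% of mucosa cells, so each Dnmt3a-deleted sample also held cells with Dnmt3a intact. Each mouse has its own animal number and counts as 1 replicate.

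Notch signalling passes between touching cells. A Delta or Jagged ligand on one cell binds a Notch receptor on its neighbour, the receptor is cut by proteases, and its freed intracellular part joins the DNA-binding protein Rbpj to switch on targets such as Hes1. In the intestinal crypt Hes1 represses Atoh1, so that cells with active Notch become absorptive. Cells in which Atoh1 is on take a secretory fate and themselves display Delta ligands. Gfi1, Spdef and Foxa3 act in secretory cells after Atoh1.

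Dnmt3a places methyl groups on the cytosine of CpG dinucleotides, so the CpG content of the members' promoter windows is given as a description. Methylation was not measured on these arrays. RefSeq windows of assembly GRCm38.p6, each from 250 bases before to 50 bases after a gene start, were matched by symbol for 9 of the 10 members (11 windows, Dll1 and Gfi1 having 2 each). Hes1 had no window in the table. The 11 windows held 7 to 41 CpG dinucleotides each, against a median of 7 over all 32851 windows. Spdef had the fewest of the members, 7 CpG, in its window at chr17:27728902-27729201 (minus strand). The windows of Gfi1 held 16 and 10 CpG. Foxa3, a goblet cell regulator like Spdef, had 22 CpG at chr7:19023490-19023789 (minus strand). These windows are shown, 5′ to 3′ along the gene, since among the members' secretory factors detected on every array they hold the fewest and the most CpG, with every CpG in capitals:
Spdef: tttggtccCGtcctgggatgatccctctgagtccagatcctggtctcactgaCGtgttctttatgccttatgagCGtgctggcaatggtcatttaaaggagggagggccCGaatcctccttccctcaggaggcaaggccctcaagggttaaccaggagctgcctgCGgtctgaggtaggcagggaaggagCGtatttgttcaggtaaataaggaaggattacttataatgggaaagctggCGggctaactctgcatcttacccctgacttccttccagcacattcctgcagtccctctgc
Foxa3: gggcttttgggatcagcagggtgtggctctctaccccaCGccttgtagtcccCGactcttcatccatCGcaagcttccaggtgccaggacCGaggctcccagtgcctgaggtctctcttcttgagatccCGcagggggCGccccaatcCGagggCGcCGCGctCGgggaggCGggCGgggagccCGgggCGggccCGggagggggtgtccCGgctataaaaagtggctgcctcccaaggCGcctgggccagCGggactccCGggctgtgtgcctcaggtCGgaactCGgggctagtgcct

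Letters bound by members of this pathway were searched in the same windows on both strands, a palindromic match being counted once. The Rbpj core GTGGGAA was present in 0 of the 11 windows and in 6.4% of all windows. The E-box CANNTG, the letter pattern of Atoh1 and other basic helix-loop-helix proteins, was present in 6 of 11 windows and in 72.3% of all windows. The N-box CACNAG, a pattern of Hes proteins, was present in 6 of 11 windows (6 genes) and in 42.5% of all windows. A match describes letters only.

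Mean unprocessed signal was 285 to 368 on the Dnmt3a-deleted arrays and 360 to 379 on the control arrays. Probes detected above background numbered 19339 to 21296 on Dnmt3a-deleted and 20783 to 21358 on control arrays. The array of Dnmt3a-deleted replicate 3 resembled the remaining 5 least. It correlated with them at 0.925 to 0.950, against at least 0.978 among those 5, and it was the highest or lowest of the 6 arrays for 67.5% of all 11370 genes tested. Xist and Eif2s3y placed 2 males and 1 female in the Dnmt3a-deleted group and 1 male and 2 females in the control group, and replicate 3 was the female of its group. None of the 3 Dnmt3a probes was detected on any array, so the arrays do not check the deletion. All 12 epithelial markers listed for this tissue, among them Epcam and Vil1, were detected on enough arrays to be tested.

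Of the 10 members, 7 had a probe detected above background on at least 3 of the 6 arrays and were tested. Detection required a deposited p-value under 0.05 together with a signal higher than that array's background. Hes1 was lower in Dnmt3a-deleted mucosa on all 3 arrays, at an unadjusted p of 0.0137 that did not hold after adjustment, and the differences of Notch1, Dll1, Dll4, Gfi1, Foxa3 and Spdef had 95% intervals that included 0. At a Benjamini-Hochberg adjusted p under 0.05 by limma, 0 of the 7 passed, as did 0.00880% of all genes tested (1 of 11370). At an unadjusted p under 0.05 the count was 1 of 7, against 5.25% of all genes. Values below are normalized log2 intensities, and differences are Dnmt3a-deleted minus control. Their median was 0.19 over the 7 members and 0.06 over all genes tested, with 5 members higher and 2 lower.

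**Figure D1:**
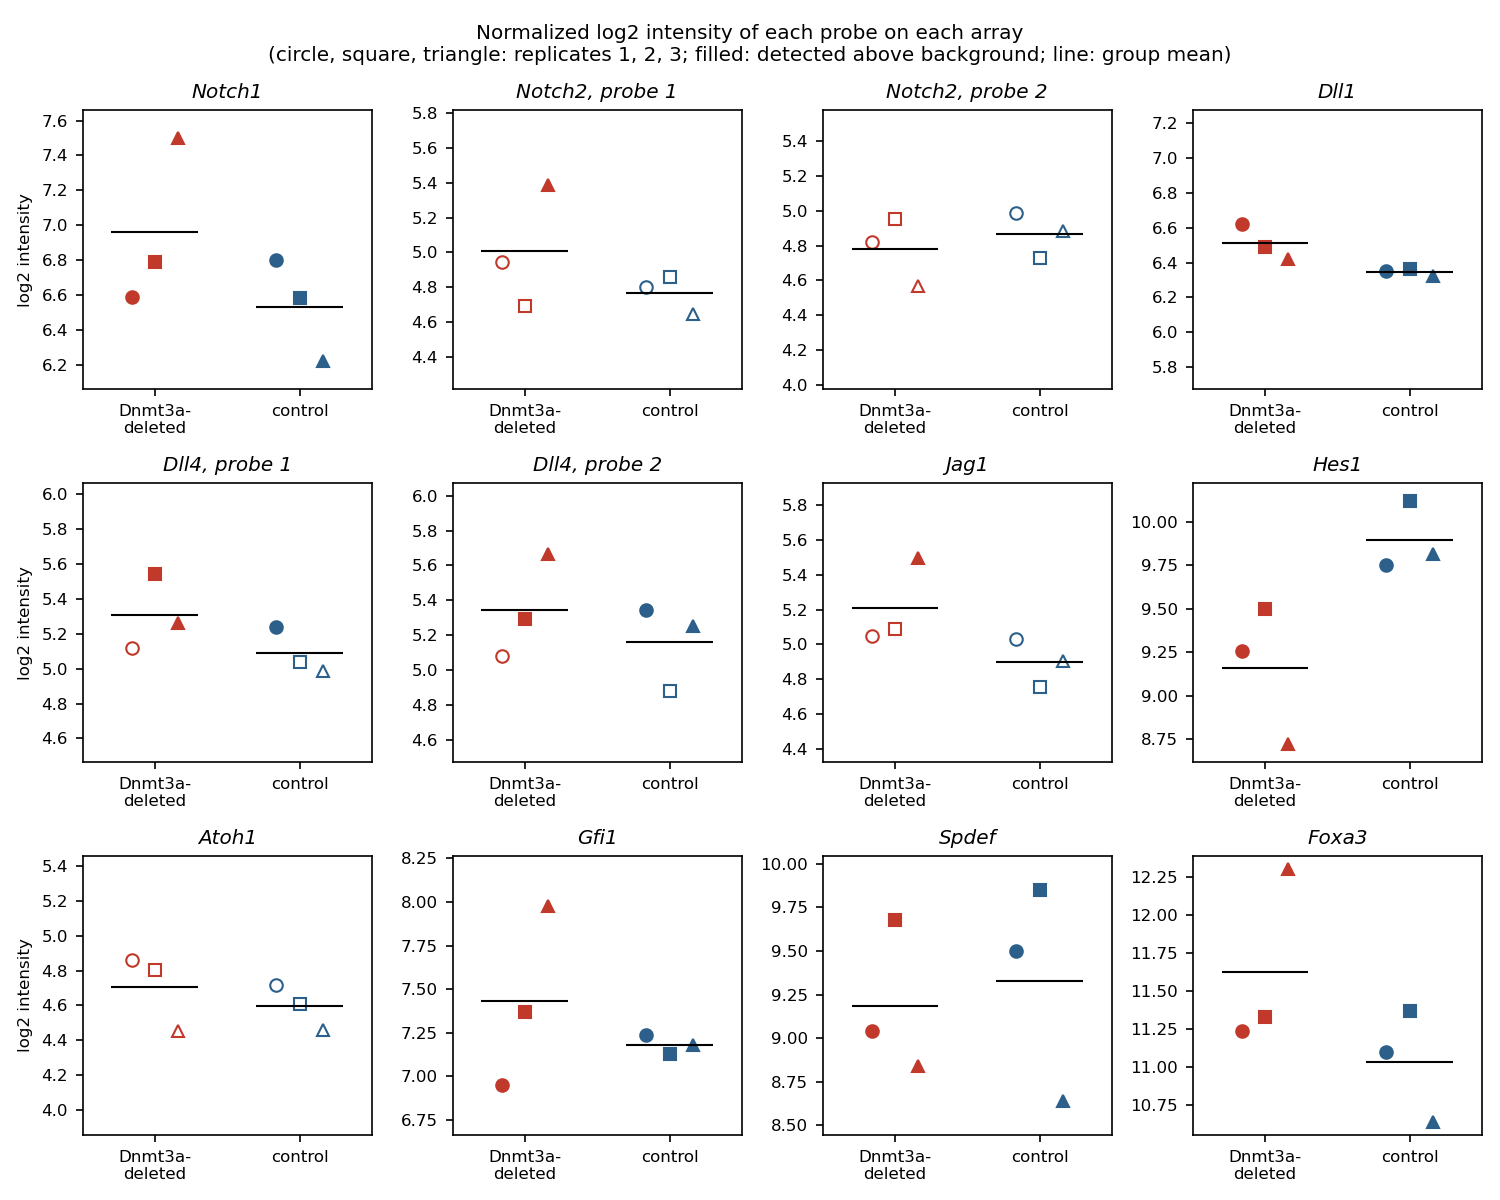
Normalized log2 intensity (vertical axis) of each of the 12 probes on each array, with Dnmt3a-deleted mice in red on the left and control mice in blue on the right. Filled symbols are detected above background, symbol shapes give the replicate number and lines are group means. The Hes1 values of the Dnmt3a-deleted mice (8.72 to 9.50) lie below those of the control mice (9.75 to 10.12), and Atoh1 is not detected on any array.

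Among the receptors, Notch1, the receptor that together with Notch2 keeps crypt progenitors dividing, was detected on all 6 arrays. Its log2 intensity was 6.59, 6.79 and 7.50 in Dnmt3a-deleted replicates 1 to 3 and 6.80, 6.58 and 6.22 in control replicates 1 to 3. The groups overlapped, and the highest value was that of Dnmt3a-deleted replicate 3. The difference was 0.43 ± 0.27 (SE; 95% interval -0.20 to 1.05, adjusted p 0.700). It was 0.16 without Dnmt3a-deleted replicate 3 and 0.27 without control replicate 3. Notch2 was detected on 1 of 6 arrays by its first probe, that of Dnmt3a-deleted replicate 3, and on 0 by its second. The first probe was at 4.94, 4.69 and 5.39 in Dnmt3a-deleted and at 4.80, 4.86 and 4.64 in control mucosa. The second was at 4.82, 4.95 and 4.57 in Dnmt3a-deleted and at 4.99, 4.73 and 4.88 in control mucosa. Both probes thus sat at background, and no fold is given for Notch2.

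Of the ligands, Dll1, a Delta ligand carried by secretory progenitors, had 6.62, 6.49 and 6.42 in Dnmt3a-deleted mucosa and 6.35, 6.37 and 6.33 in control mucosa. All 3 Dnmt3a-deleted values lay above the 3 control values, which spanned a narrow range. Groups that do not overlap, with Dnmt3a-deleted higher, were found for 9.22% of all genes tested, and for 1 of the 7 members, Dll1. The Dll1 difference was 0.16 ± 0.15 (SE; interval -0.18 to 0.51, adjusted p 0.729), and 0.11 without Dnmt3a-deleted replicate 1. With median scaling its direction turned, to -0.0024. Median scaling put the median of all genes at -0.051, against 0.06 with quantile normalization.

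Dll4, the other Delta ligand of crypt secretory cells and also a ligand of blood vessel cells, was dim. Its brighter probe was detected on 2 Dnmt3a-deleted and 2 control arrays, with 5.08, 5.29 and 5.66 in Dnmt3a-deleted and 5.34, 4.88 and 5.25 in control mucosa. Its other probe was at 5.12, 5.54 and 5.26 in Dnmt3a-deleted and at 5.24, 5.04 and 4.99 in control mucosa. Both probes overlapped between groups. The brighter probe's difference was 0.19 ± 0.21 (SE; interval -0.31 to 0.68, adjusted p 0.762). It was 0.03 without Dnmt3a-deleted replicate 3, 0.05 without control replicate 2 and 0.32 without Dnmt3a-deleted replicate 1. Of 16 markers of blood vessel endothelium 3 were tested and 8 were detected on no array, Tek and Tie1 among them. The summed linear intensity of the 3 was 130 to 263 in Dnmt3a-deleted and 128 to 155 in control mucosa, and its part in the Dll4 values was not tested. Jag1, a Jagged ligand, was detected only in Dnmt3a-deleted replicate 3, with 5.05, 5.09 and 5.49 in Dnmt3a-deleted and 5.03, 4.76 and 4.90 in control mucosa. It was not detected on the other 5 arrays, was too dim to be tested, and no fold is given for it.

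Hes1, the transcriptional repressor that carries the Notch signal to Atoh1, was the member with the smallest p. Its log2 intensity was 9.26, 9.50 and 8.72 in Dnmt3a-deleted replicates 1 to 3 and 9.75, 10.12 and 9.81 in control replicates 1 to 3. Every Dnmt3a-deleted mouse lay below every control mouse, and replicate 3 lay lowest. Groups that do not overlap, with Dnmt3a-deleted lower, were found for 5.30% of all genes tested. Hes1 averaged 9.16 ± 0.40 in Dnmt3a-deleted and 9.89 ± 0.20 in control mucosa (SD, n = 3 each). The difference was -0.73 ± 0.23 (SE; 95% interval -1.27 to -0.20), or 1.66-fold lower, with a limma adjusted p of 0.700. An unadjusted p under 0.05 in this direction was reached by 2.15% of all genes.

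The Hes1 difference kept its sign under all 19 alternatives, from -0.90 to -0.37, with adjusted p from 0.0987 to 1.000. It was -0.51 without Dnmt3a-deleted replicate 3 (unadjusted p 0.0186), -0.62 without control replicate 2 (unadjusted p 0.0541), and -0.37 in a fit on 5 arrays that dropped Dnmt3a-deleted replicate 3 and included sex (unadjusted p 0.164). In bulk mucosa, fewer cells of a type and less RNA per cell cannot be told apart. Hes1 is not specific to the epithelium, and markers of T and NK cells had differences of the same sign. Of the 11 tested 10 were lower, with a median of -0.93. An unadjusted p below 0.05 by limma was reached by 9 of the lower ones, against 2.15% of all genes. Among these 9, Cd2 was detected on 0 Dnmt3a-deleted and 3 control arrays, and Cd7 on 1 and 3. Both thus passed the detection filter through the group where they were higher. The summed linear intensity of the 11 was 3562 to 5210 in Dnmt3a-deleted and 4347 to 8000 in control mucosa, with Cd8a and Gzmb detected on no array. Cd8b1, the 1 marker that was higher (0.43 ± 0.19, SE), had the highest mean of the 11 in both groups. It was at 11.26, 11.63 and 11.38 in Dnmt3a-deleted and at 11.19, 10.71 and 11.07 in control mucosa. In Dnmt3a-deleted mucosa the sum thus reflects Cd8b1 in large part, against the direction of the other markers. In control mucosa Ccl5 had a mean of 10.96, near the 10.99 of Cd8b1. The control sums were 5358, 4347 and 8000 in replicates 1 to 3, and in replicate 3 Ccl5 was at 11.79 and Cd8b1 at 11.07. The part of the T and NK cell markers in the Hes1 difference was not tested.

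**Figure D2:**
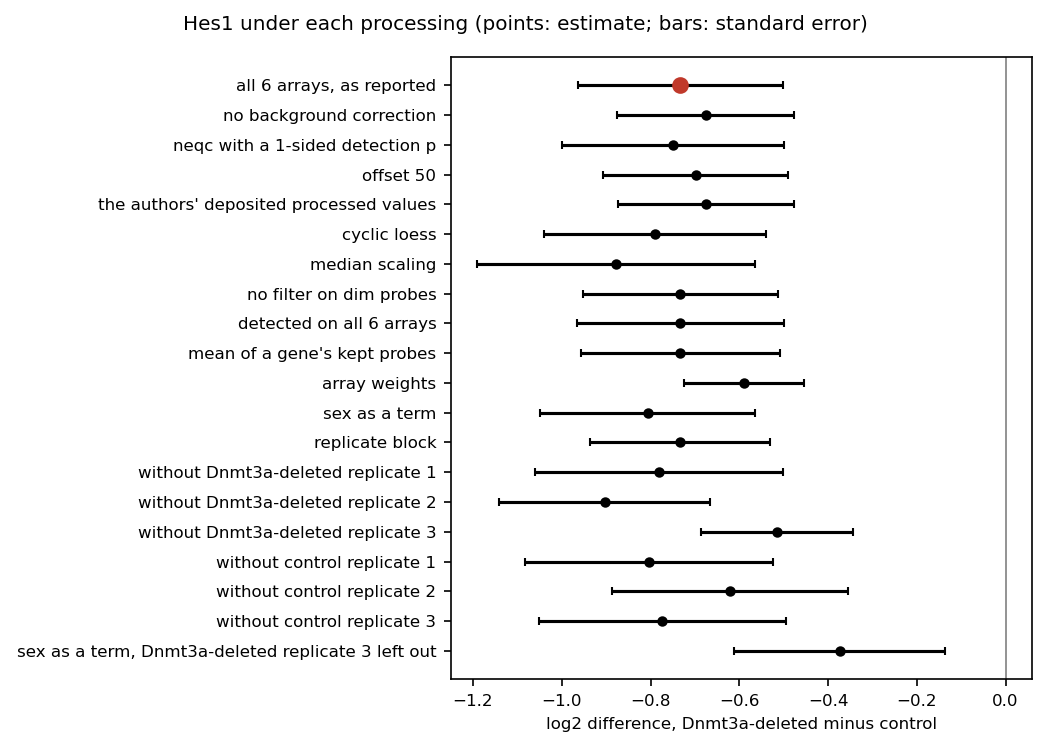
Log2 difference of Hes1, Dnmt3a-deleted minus control (horizontal axis), as reported (red point) and under each of 19 alternatives (black points), with bars for the standard error. All points lie below 0, and the smallest difference, -0.37, comes from the fit that included sex and dropped Dnmt3a-deleted replicate 3.

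Atoh1, the basic helix-loop-helix factor that starts the secretory programme and that Hes1 represses, was not detected on any array. Its unprocessed signal was 87.8, 87.5 and 77.9 in Dnmt3a-deleted replicates 1 to 3, against background levels of 89.2, 90.1 and 84.9 on the same arrays. In control replicates 1 to 3 it was 83.9, 82.5 and 81.6, against background levels of 88.0, 88.6 and 90.7. The Atoh1 probe thus lay under background in all 6 mice, and the arrays give no measure of this gene in either group.

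Gfi1, a zinc finger repressor that acts after Atoh1 and holds goblet cells apart from hormone-secreting cells, was at 6.95, 7.37 and 7.98 in Dnmt3a-deleted mucosa and at 7.24, 7.13 and 7.18 in control mucosa. The Dnmt3a-deleted mice lay on both sides of the closely spaced control mice. The difference was 0.25 ± 0.26 (SE; interval -0.35 to 0.85, adjusted p 0.747). Without Dnmt3a-deleted replicate 3 its direction turned, to -0.02, and without Dnmt3a-deleted replicate 1 it was 0.49.

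Spdef, an Ets domain factor needed for goblet cell maturation, was at 9.04, 9.68 and 8.84 in Dnmt3a-deleted and at 9.50, 9.85 and 8.64 in control mucosa. Both groups spread over about the same range. The difference was -0.14 ± 0.34 (SE; interval -0.94 to 0.66, adjusted p 0.886). With 1 array left out it ran from -0.49, without control replicate 3, to 0.12, without control replicate 2, so no direction can be given.

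Foxa3, a forkhead factor of goblet cells, was at 11.23, 11.33 and 12.30 in Dnmt3a-deleted and at 11.10, 11.37 and 10.63 in control mucosa. Dnmt3a-deleted replicates 1 and 2 lay within the control range and replicate 3 lay above it. The difference was 0.59 ± 0.32 (SE; interval -0.16 to 1.33, adjusted p 0.700). It was 0.25 without Dnmt3a-deleted replicate 3, 0.39 without control replicate 3, and 0.74 with sex as a term, where the unadjusted p was 0.0449 and the adjusted p 0.339.

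Dnmt3a-deleted replicate 3 was the extreme of the 6 arrays for 5 of the 7 tested members, highest for Notch1, Dll4, Gfi1 and Foxa3 and lowest for Hes1. The share, 71.4%, stands beside the 67.5% of all genes given above. Without this array 5 of the 7 members were again higher, but Gfi1 and Spdef had changed places, and Hes1 remained the only one at an unadjusted p under 0.05.

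**Figure D3:**
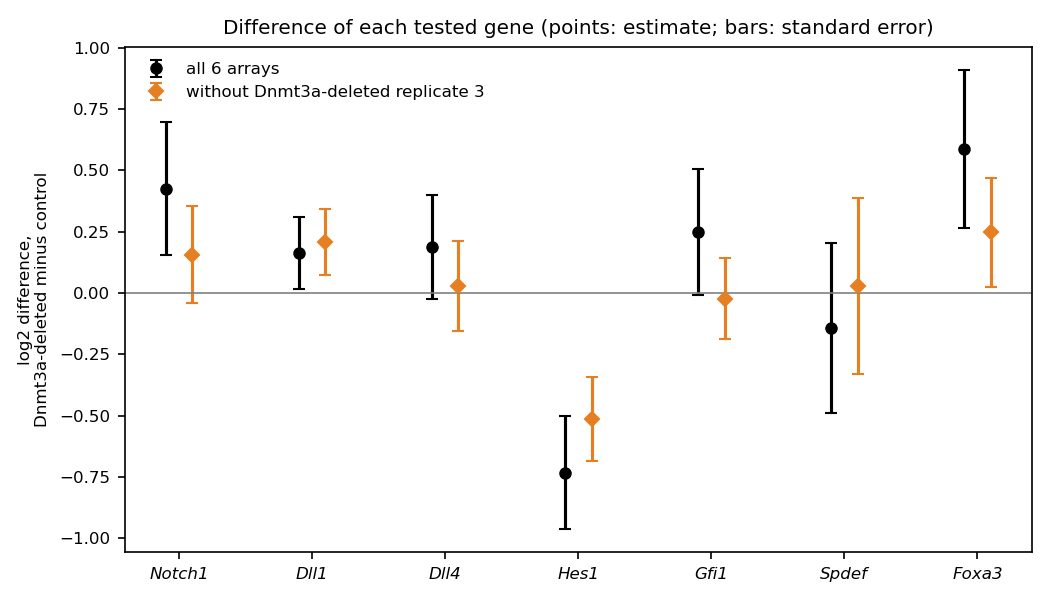
Log2 difference of the 7 tested members, Dnmt3a-deleted minus control (vertical axis), over all 6 arrays (black circles) and without Dnmt3a-deleted replicate 3 (orange diamonds), with bars for the standard error. Foxa3 is at 0.59 over all arrays and at 0.25 without that array, Notch1 at 0.43 and at 0.16, and Hes1 is below 0 in both, at -0.73 and -0.51.

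The wider pathway was described through 6 lists, 5 of Notch pathway genes and 1 of other secretory lineage transcription factors. They hold 100 different genes, of which 74 were tested. At an adjusted p under 0.05 by limma 0 of the 74 passed, while 5 higher and 1 lower had an unadjusted p below 0.05, against 3.10% and 2.15% of all genes. These background shares rest on 352 higher and 245 lower genes, a balance that was 280 and 282 with loess and 172 and 317 with median scaling. Of the 74 genes 52 were higher and 22 lower, and 58.4% of all genes were higher. The median difference was 0.11, against 0.06 over all genes. Groups did not overlap for 8 of the 74 with Dnmt3a-deleted higher, against 9.22% of all genes. With Dnmt3a-deleted lower they did not overlap for 2 of the 74, against 5.30% of all genes. Every gene named from these 6 lists had an adjusted p of 0.700 or above.

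Notch receptors, ligands and the enzymes that activate ligands had 4 of 6 tested genes higher, with a median of 0.29 (0.17 without Dnmt3a-deleted replicate 3) and 0 at an unadjusted p under 0.05. Notch4, a receptor best known from blood vessels, was at 8.62, 8.22 and 8.91 in Dnmt3a-deleted and at 7.21, 8.66 and 7.60 in control mucosa, and the groups overlapped. Its difference was 0.76 ± 0.37 (SE). It was 0.45 without control replicate 1, and 1.18 without control replicate 2, where the unadjusted p was 0.00353 and the adjusted p 0.805 by limma. With the mean of its kept probes Notch4 was at 0.50. Neurl3 and Neurl1a, of the Neuralized family of ubiquitin ligases, had differences of -0.86 ± 0.46 and 0.54 ± 0.30. Without Dnmt3a-deleted replicate 3 Neurl3 was at -0.34 and Neurl1a at 0.27, and without control replicate 3 they were at -0.55 and 0.31. The mean of its kept probes put Neurl3 at -0.51. Notch3 and Dll3 were detected on no array.

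Genes that mature and cleave Notch were split, with 4 higher and 6 lower of 10 and a median of -0.06, or 0.03 without Dnmt3a-deleted replicate 3. Adam10, the protease that makes the first ligand-induced cut, was at 5.46, 5.28 and 5.70 in Dnmt3a-deleted and at 5.23, 5.00 and 4.98 in control mucosa, where 1 array detected it. It was detected on all 3 Dnmt3a-deleted arrays, and thus passed the detection filter through the group where it was higher. The groups did not overlap and the difference was 0.41 ± 0.18 (SE, limma unadjusted p 0.0492). That p was under 0.05 in 5 of the 18 alternatives in which Adam10 was tested, and was 0.102 without background correction. Adam17, a related protease, was at 0.36 ± 0.24, at 0.15 without Dnmt3a-deleted replicate 3 and at 0.22 without control replicate 2. Aph1a, a subunit of the gamma-secretase that makes the second cut, was at -0.53 ± 0.43 and ran from -0.88 without Dnmt3a-deleted replicate 2 to -0.02 without Dnmt3a-deleted replicate 3.

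Genes that restrain or turn over Notch had 7 higher and 4 lower of 11, with a median of 0.04 and 0 at an unadjusted p under 0.05. Dlk1, an atypical ligand-like protein, was at 0.92 ± 0.41 (SE), at 0.59 without Dnmt3a-deleted replicate 3 and at 0.60 without control replicate 3. The Notch-binding ubiquitin ligases Dtx1 and Itch were at -0.47 ± 0.26 and -0.31 ± 0.19. Without control replicate 3 Dtx1 was at -0.30 and Itch at -0.18. Dtx1 was at -0.31 without Dnmt3a-deleted replicate 1, and Itch at -0.20 without Dnmt3a-deleted replicate 3. The Itch values of the Dnmt3a-deleted mice all lay below those of the control mice.

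The nuclear complex and its co-repressors had 11 higher and 4 lower of 15, with a median of 0.18, or 0.11 without Dnmt3a-deleted replicate 3. Spen, a large co-repressor that binds Rbpj, was at 7.06, 6.83 and 6.61 in Dnmt3a-deleted and at 6.33, 6.50 and 6.10 in control mucosa. Its groups did not overlap. The difference was 0.52 ± 0.19 (SE, unadjusted p 0.0245), and 0.64 without Dnmt3a-deleted replicate 3. The co-activators Maml1 and Snw1 were at 0.34 ± 0.15 and 0.50 ± 0.29. Snw1 was at 0.16 without that replicate. Rbpj itself was detected on no array.

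Beside Hes1, 8 Notch target genes were tested, 5 higher and 3 lower, with a median of 0.03, or 0.17 without Dnmt3a-deleted replicate 3. Nrarp, a feedback inhibitor of Notch that is itself a Notch target, was at 9.599, 9.442 and 9.635 in Dnmt3a-deleted and at 9.314, 8.998 and 9.177 in control mucosa. All 3 Dnmt3a-deleted values lay above the control values, and the difference was 0.40 ± 0.16 (SE, unadjusted p 0.0406). Nrarp thus differed in the direction opposite to Hes1. Dtx1, given above and also on the target list, was lower, as Hes1 was, at -0.47 ± 0.26 (SE). Ccnd1, cyclin D1, which Wnt signalling also drives, was at 0.45 ± 0.19. The other targets Hey2 and Heyl were detected on no array.

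Of the other secretory lineage transcription factors 21 of 25 were higher, where 58.4% of all genes were higher. Their median was 0.14, against 0.06 over all genes. An unadjusted p under 0.05 was reached by 3 of them, 2 higher and 1 lower. Bhlha15, a factor of mature secretory cells, was at 7.15, 6.95 and 7.03 in Dnmt3a-deleted and at 6.79, 6.66 and 6.16 in control mucosa. Its groups did not overlap, and the difference was 0.51 ± 0.20 (SE, unadjusted p 0.0375), or 0.32 without control replicate 3 (unadjusted p 0.125). Elf3, an Ets factor of the whole epithelium, was at 0.60 ± 0.26 (unadjusted p 0.0498), and at 0.32 without Dnmt3a-deleted replicate 3 (unadjusted p 0.0812). Its probes disagreed, since the mean of its kept probes gave -0.25. Ets1, which lymphocytes also express, was at 6.09, 6.69 and 5.30 in Dnmt3a-deleted and at 6.91, 6.83 and 7.76 in control mucosa. Its difference was -1.14 ± 0.39 (SE, unadjusted p 0.0190), in the direction of the T and NK cell markers given above, whose part was not tested.

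**Figure D4:**
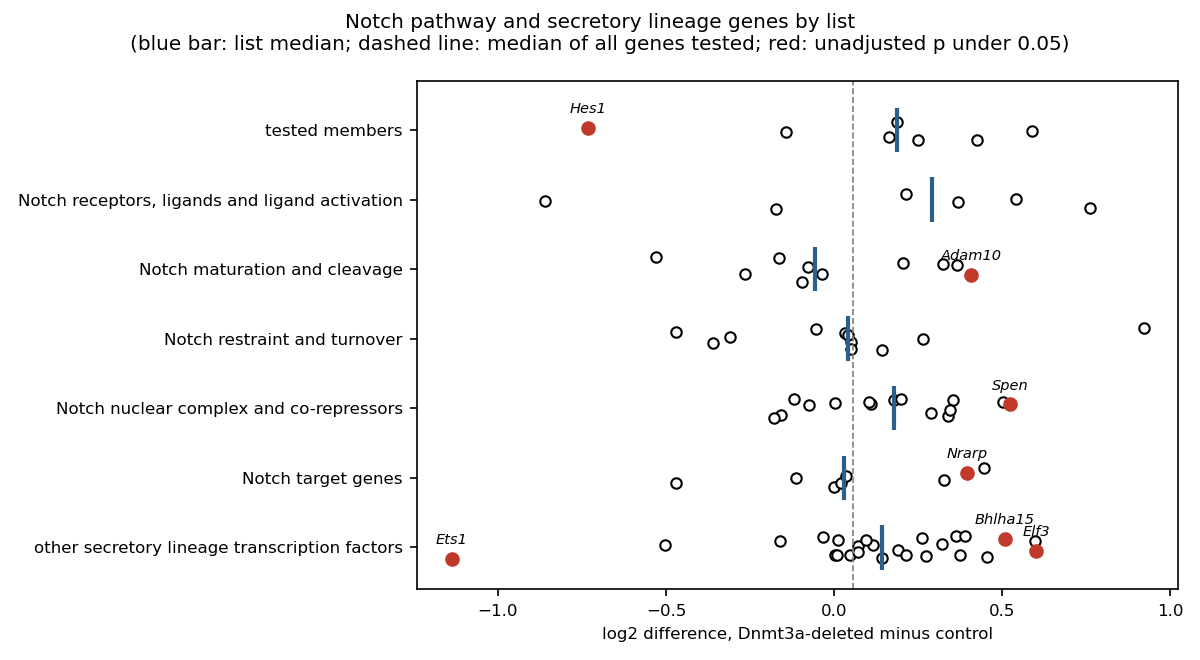
Log2 differences, Dnmt3a-deleted minus control (horizontal axis), of the 7 tested members and of the tested genes of each of the 6 lists, 1 point per gene. Blue bars are list medians, the dashed line is the median of all genes tested (0.06), and red points have an unadjusted p under 0.05. Hes1 and Ets1 are the red points on the lower side.

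Marker lists of the cell types that these regulators specify were read the same way. These lists were chosen with earlier results of these data known, so their counts are not independent of the data. Of 18 goblet cell markers tested 15 were higher, with a median of 0.21. Clca1, Tff2 and Ang4, 3 of the 18, were higher at an unadjusted p under 0.05 by limma, against 3.10% of all genes. The trefoil peptide Tff2 was also past the adjusted threshold (4.06 ± 0.25, SE, adjusted p 0.00361). The goblet cell protein Clca1 was at 13.74, 13.06 and 13.70 in Dnmt3a-deleted and at 12.68, 11.87 and 10.91 in control mucosa. Ang4, also on this list, was at 4.38 ± 1.02 (SE, limma adjusted p 0.700). Other markers of the list differed little, with Muc2 at 0.06 ± 0.15, Zg16 at 0.14 ± 0.15, Agr2 at 0.13 ± 0.36 and Spink4 at 0.19 ± 0.19. Of 13 enteroendocrine markers 4 were higher and 9 lower, with the hormone Insl5 at 1.14 ± 0.29 and somatostatin, Sst, at -0.95 ± 0.26. Of 11 tuft cell markers 10 were higher, with a median of 0.62, or 0.44 without Dnmt3a-deleted replicate 3. Of these 11, 6 were higher at an unadjusted p under 0.05 by limma, against 3.10% of all genes. Groups did not overlap, with Dnmt3a-deleted higher, for 6 of the 11, against 9.22% of all genes. At the adjusted threshold 0 tuft cell markers passed. Markers of absorptive colonocytes were split, with 7 higher and 9 lower of 16 and a median of -0.11, or 0.14 without Dnmt3a-deleted replicate 3. Spdef, Foxa3 and Gfi1, the goblet cell regulators among the members, did not pass the threshold.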

How the data were processed

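Total RNA of colon mucosa from 3 Dnmt3a-deleted and 3 control mice was amplified to biotinylated cRNA, per the labels' protocols. Scanner, scanner software and build: not given in the sources used here. A deposited table of unprocessed values holds 1 linear signal intensity per probe, background included, and a deposited detection p-value, which from the values is 2-sided about background. A deposited table of intensities processed by the authors, by a method not stated in the labels, served as an alternative.

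Unprocessed intensities were background-corrected with normexp (saddle-point, offset 16), quantile normalized and log2 transformed with limma 3.58.1 in R 4.3.3. The background level was the median signal of probes with a detection p over 0.97. Of all probes, 21183 were detected on 3 or more of the 6 arrays and kept. The brightest kept probe by mean stood for its gene (11370 genes). Genes were named from the platform annotation (34773 probes with 1 symbol, 18 with several left unnamed, 10344 not named here), updated by gene number through RefSeq GRCm38.p6 for 34695 probes. Groups were compared over all genes with limma (lmFit, eBayes), 2-sided, with no covariate, and p-values adjusted by Benjamini-Hochberg. Data were also simulated for this comparison over 11370 genes. The test recovered 44 of 100 genes made to differ 2-fold and 95 of 100 made to differ 4-fold, with 8 false calls. The simulated noise was independent for each gene and array, no array was outlying, and all these genes differed at once. In the data 1 gene passed, and the adjusted threshold is stricter when few genes pass. The simulated rates thus do not carry over to the data.

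The members and the 18 gene lists were chosen with earlier results of these data known. All members are named, and up to 3 genes of smallest unadjusted p per list. Others, named for not being detected or as markers, were chosen after their values were seen.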

Additional observations from a re-analysis of the deposited data

How the results depend on the processing

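Over 19 alternatives, 6 of which left out 1 array, 0 members and 0 of the 74 listed genes passed the adjusted threshold. The members at an unadjusted p under 0.05 numbered 2 with array weights and 2 with sex as a term, 0 in a fit that included sex and dropped Dnmt3a-deleted replicate 3 (an alternative added after the data were seen), and 0 to 1 with 1 array left out. Without control replicate 2 it was 0. The listed genes at that p, 6 in all, numbered 3 with loess, 2 with median scaling, 19 with array weights and 0 to 6 with 1 array left out, the 0 being without control replicate 3. Genes past the adjusted threshold numbered 15 with array weights, 2 with sex included and Dnmt3a-deleted replicate 3 dropped, and 0 to 1 with 1 array left out (0 without control replicate 2).

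Of 453 differences of 24 named genes, 442 kept their direction and 11 reversed. With sex included and Dnmt3a-deleted replicate 3 dropped, these were Notch1 (-0.11), Dll4 (-0.16), Gfi1 (-0.080) and Neurl3 (0.022). With array weights, which gave Dnmt3a-deleted replicate 1 a weight of 6.04 and replicate 3 one of 0.154, they were Dll4 (-0.080) and Gfi1 (-0.18). Without Dnmt3a-deleted replicate 3 they were Gfi1 (-0.023) and Spdef (0.030), and without control replicate 2 Spdef (0.12). With 1 array left out Gfi1 ran from -0.023 to 0.49 and Spdef from -0.49 to 0.12. Dll1 reversed with median scaling (-0.0024) and Elf3 with the mean of its probes (-0.25). The cause was not tested. Atoh1, Notch2 and Jag1 were limited by signal near background.

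Same-numbered mice did not deviate together (correlations of -0.124, -0.11 and 0.0378), and differently numbered mice correlated at -0.0726 to 0.196. No pairing by number was seen, but 3 mice per group are too few to exclude one. With the replicate number as a block, 1 gene and 0 members passed, and Hes1 was at -0.73 with an unadjusted p of 0.0115. No slide block could be fitted, since the headers name no slides.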

Other observations

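Of the intestinal stem cell markers 7 of 10 tested were higher, with a median of 0.05, or 0.03 without Dnmt3a-deleted replicate 3. Axin2, a Wnt target, was at 8.77, 8.60 and 8.38 in Dnmt3a-deleted and at 8.32, 8.02 and 7.84 in control mucosa. Prom1, a surface protein of crypt base cells, was at 7.77, 8.40 and 6.47 in Dnmt3a-deleted and at 9.07, 8.91 and 8.52 in control mucosa. Both had groups that did not overlap, in opposite directions, and adjusted p of 0.700 by limma. Such groups were found for 9.22% of all genes with Dnmt3a-deleted higher and for 5.30% with Dnmt3a-deleted lower.

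The remaining marker lists were read in the same way. Of 9 proliferation genes 6 were higher and 3 lower, with a median of 0.05, or 0.39 without Dnmt3a-deleted replicate 3. Of 11 myeloid markers 3 were higher and 8 lower, with a median of -0.15. Their summed linear intensity was 1424 to 2510 in Dnmt3a-deleted mucosa and 2517, 7329 and 2125 in control replicates 1 to 3. The high sum is that of control replicate 2 alone, where S100a8 was at 12.05, against 9.47 and 6.54 in control replicates 1 and 3. All 5 B and plasma cell markers tested were lower. Of 6 fibroblast and smooth muscle markers 4 were higher and 2 lower, and of the 12 epithelial markers 6 were higher and 6 lower.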
